A study of Arabidopsis thaliana with 4 samples.

Results

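Plastid-encoded transcripts were described in whole roots of Arabidopsis thaliana wild type and of the nlp7-1 mutant. Members were the probe sets of the array whose annotation names 1 gene and whose gene lies in the plastid genome. There were 69 such probe sets, each for a different gene, among the 22746 probe sets that are not controls. Another 7 plastid genes, which are present in more than 1 copy or annotated in parts, were read by 8 probe sets that name 2 loci each and are not members.

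Both genotypes were in the Col-0 ecotype, and nlp7-1 is a mutant allele of NLP7, a transcription factor of nitrate signalling. Seedlings were untreated and were kept at 22 °C with 16 h of light on 1x MS agar of pH 5.7. Whole roots, severed just below the hypocotyl, were taken at an age given as 5 dai. Each genotype had 2 biological replicates of about 60 pooled roots, hybridised to 4 Affymetrix ATH1 arrays in all. One mutant allele stood for the loss of NLP7, no probe set was annotated to NLP7, and the genotype labels could therefore not be checked on the arrays.

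The plastid genome encodes core subunits of the photosynthetic complexes together with part of its own gene expression machinery, namely RNA polymerase subunits, ribosomal proteins and RNAs. Its bacterial-type RNA polymerase transcribes most photosynthesis genes. A phage-type polymerase, which is encoded in the nucleus, transcribes the operon for the bacterial-type enzyme's own subunits. Many plastid genes are transcribed as operons, so that neighbouring genes share precursor RNAs. Root plastids are mostly non-green and serve starch storage, nitrogen assimilation and lipid synthesis. Plastid mRNAs mostly lack stable poly(A) tails, whereas the labelling used here begins at A-rich stretches. A MAS5 signal is the linear brightness of a probe set computed from its probes. It is therefore compared below within a single probe set and not between genes. The exceptions are a filter on low signals and a sum over marker genes.

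Of the 30 transcripts of photosynthetic complexes above a filter on low signals, all had a mean below wild type in nlp7-1 roots, with a median log2 change of -0.33, and 2 of them passed the test. The 16 transcripts of the gene expression machinery above the filter had a median of -0.04 and ran from -0.75 to 0.54, and 0 passed. The difference between these groups was not tested. The psaB transcript, for a core reaction-centre protein of photosystem I, fell by 0.82 ± 0.10 on the log2 scale (SE). The rbcL transcript, for the large subunit of the carbon-fixing enzyme RuBisCO, fell by 0.77 ± 0.14. No other of the plastid members passed, in either direction. The test was limma, adjusted by the Benjamini-Hochberg method over the 13648 probe sets at or above the filter, with a threshold of 0.05. In bulk roots, fewer plastids or fewer cells of a type and less RNA per cell cannot be told apart.

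In all, 59 of the 69 members (85.5%) had a mean log2 signal below that of wild type, against 50.9% of all probe sets. In 36 members (52.2%) both mutant samples lay below both wild-type samples, against 20.0% of all probe sets. The opposite, both mutant samples above, held for 6 members (8.70%) and for 20.4% of all probe sets. The median log2 change over the 69 was -0.23, and over all probe sets it was -0.006. These members share 4 arrays, so their changes are not independent of each other.

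The filter was a mean signal of 59.4 over the 4 samples, and 53 members lay above it. The member just inside was psbA, with a mean signal of 67.1, and the one just outside was rps16, with 58.8. Of the 53, 2 (3.77%) passed as lower at an adjusted p under 0.05, against 0.630% of the probe sets tested. Passing as higher held for 0 of them, against 1.64%. At an unadjusted p under 0.05, 16 of the 53 (30.2%) were lower, against 5.71%, and 1 (1.89%) was higher, against 7.50%. The median log2 change of the 53 was -0.22. Set sample against sample, mutant minus wild type, it ran from -0.31 to -0.16 over the 4 combinations, and the replicates differed by 0.08 in wild type and 0.07 in nlp7-1.

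**Figure D1:**
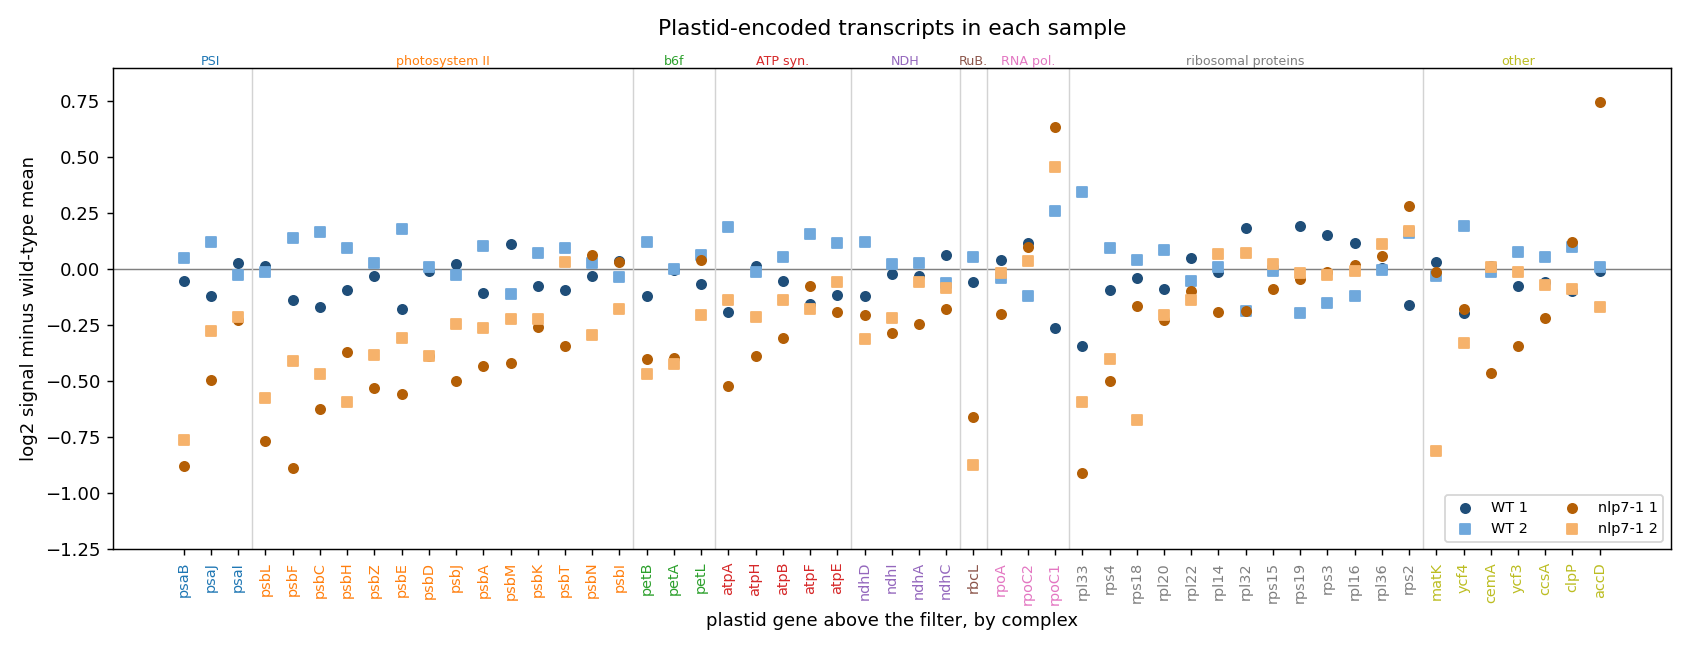
Log2 MAS5 signal of the 53 plastid genes above the filter in each of the 4 samples, minus the mean of the wild-type samples for that gene (y axis), ordered by complex and then by change (x axis). Orange mutant points lie below the blue wild-type points for most photosynthesis genes, and the colours mix in 6 of the 13 ribosomal protein genes.

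Photosystem I had 5 members, of which 3 lay above the filter. The signal of psaB was 1843 and 1980.3 in wild type against 1037 and 1126 in nlp7-1. Both mutant samples were far below both wild-type samples, a 1.77-fold lower level (limma adjusted p = 0.0216). The call was lost in 4 of 13 alternative settings, among them a variance prior with no trend (adjusted p = 0.0563) and the fits without nlp7-1 replicate 1 (adjusted p = 0.127) and without nlp7-1 replicate 2 (adjusted p = 0.0816). The small subunit genes psaJ and psaI did not pass, with log2 changes of -0.38 ± 0.15 and -0.22 ± 0.11 (SE). For psaJ the signals were 215 and 254 in wild type against 166 and 193 in nlp7-1. For psaI they were 569.6 and 549 against 479 and 483. The genotypes did not overlap in either gene. Below the filter, psaA, for the partner of the psaB protein, gave 37.2 and 36.0 in wild type against 37.5 and 23.4 in nlp7-1, which overlapped. The gene for the iron-sulfur subunit, psaC, gave 23.1 and 29.3 against 30.9 and 32.1.

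RuBisCO has 1 plastid-encoded subunit. The rbcL signal was 263 and 284 in wild type against 173 and 149 in nlp7-1, without overlap. The mutant level was 1.70-fold lower (limma adjusted p = 0.0484), just inside the threshold. The call was lost in 7 of the 13 alternative settings, for example with no filter on low signals (adjusted p = 0.0735) and without nlp7-1 replicate 2 (adjusted p = 0.277). It was also lost when all genes of a chromosome 1 segment, raised in this mutant or not, were taken out of the fit (adjusted p = 0.0736).

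Photosystem II had 15 members, 14 of them above the filter. All 15 had log2 changes below 0, and in 12 of the 15 the genotypes did not overlap, against 20.0% of all probe sets with the mutant lower. By the adjusted test 0 of the 14 passed, and 8 had an unadjusted p under 0.05, all lower, against 5.71% of the probe sets tested. The closest to the threshold was psbL, for a small subunit near the electron acceptor side. Its signals were 315 and 308 in wild type against 183 and 209 in nlp7-1, a log2 change of -0.67 ± 0.13 (limma adjusted p = 0.0596).

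Its operon neighbours psbE and psbF encode the 2 subunits of the haem protein of photosystem II, and psbJ encodes another small subunit. The psbF signals were 699 and 848 in wild type against 416 and 579 in nlp7-1. For psbE they were 308 and 394 against 237 and 282, and for psbJ 709 and 685 against 492 and 588. In each of these 4 genes both mutant samples were lower, with a median log2 change of -0.54, and within the mutant replicate 1 was the lower sample each time. The psbF change of -0.65 was -0.41 without nlp7-1 replicate 1.

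A second group of neighbours, psbD, psbC and psbZ, encodes a reaction-centre protein, a core antenna protein and a small peripheral subunit. The psbC signals were 367 and 463 in wild type against 267 and 298 in nlp7-1. The psbZ signals were 1078 and 1123 against 761 and 845, and those of psbD 77.5 and 78.3 against 59.7 and 59.6. The mutant samples were again the lower ones in each gene, with log2 changes of -0.55 ± 0.15, -0.46 ± 0.11 and -0.38 ± 0.18 (SE) for psbC, psbZ and psbD.

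The phosphoprotein gene psbH gave 179.6 and 205 in wild type against 148 and 127 in nlp7-1. The small-subunit gene psbM gave 3647 and 3127 against 2523 and 2891. The genotypes did not overlap in either, nor in psbA, for the rapidly turned over reaction-centre protein, with 70.3 and 81.4 against 56.0 and 63.0. The psbA log2 change was -0.35 ± 0.19. The smallest change of the complex was that of psbI, at -0.07 ± 0.12, with overlapping signals of 674 and 642 against 672 and 581. The genotypes also overlapped in psbT and in psbN, an assembly factor gene read from the opposite strand, at -0.16 ± 0.21 and -0.12 ± 0.19. The core antenna gene psbB was below the filter, with 56.8 and 82.2 in wild type against 49.4 and 30.9 in nlp7-1.

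**Figure D2:**
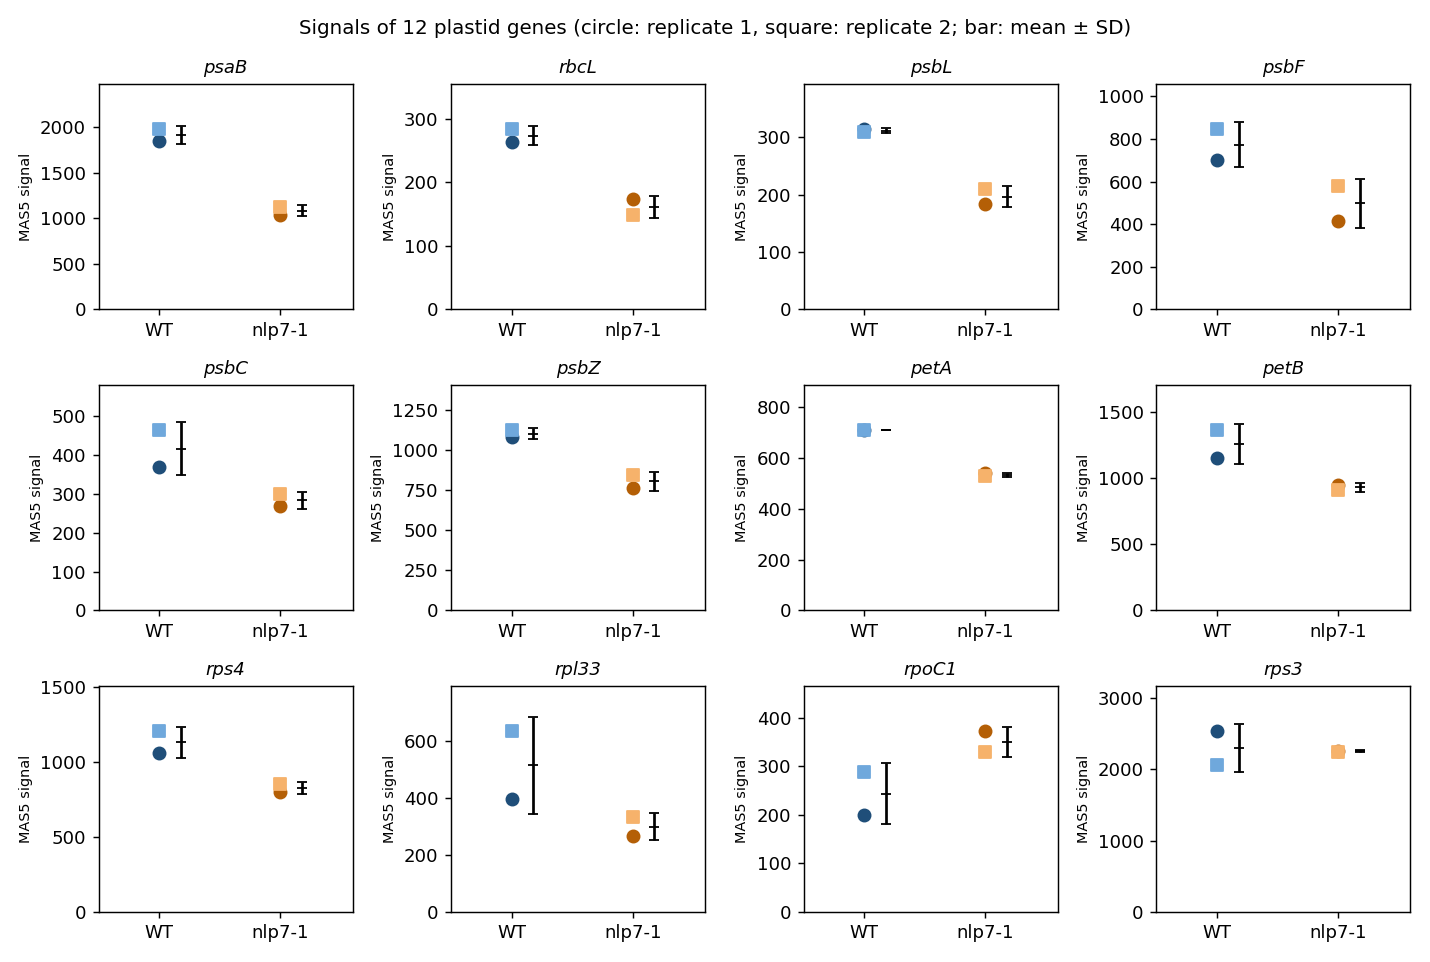
MAS5 signal of 12 plastid genes in the wild-type (blue) and nlp7-1 (orange) samples on linear axes from 0, with the mean and SD of the 2 replicates as black bars. From psaB to rpl33 both mutant points lie below both wild-type points, in rpoC1 they lie above, and in rps3 they overlap. All but rps3 had an unadjusted limma p under 0.05, which held for 16 lower and 1 higher of the 53 members above the filter. The 12 are therefore not typical of the members.

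The cytochrome b6f complex links the photosystems, and 3 of its 6 members lay above the filter. By the adjusted test 0 passed, and 2 had an unadjusted p under 0.05, both lower, against 5.71% of the probe sets tested. The petA gene, for cytochrome f, had closely matching replicates, with 708 and 710.0 in wild type against 539.6 and 529 in nlp7-1. Its log2 change was -0.41 ± 0.11 (limma adjusted p = 0.161). The petB gene, for cytochrome b6, gave 1154 and 1365 against 952 and 908, a log2 change of -0.43 ± 0.12. Both genes were lower in both mutant samples. The small-subunit gene petL overlapped, with 75.9 and 83.0 against 81.7 and 68.9. Below the filter, petD, petN and petG had signals between 18.8 and 55.8 in all samples.

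For the chloroplast ATP synthase, 5 of 6 members lay above the filter, and 0 passed the adjusted test or had an unadjusted p under 0.05. All 5 changes were below 0, against 50.0% of all probe sets above the filter, and ran from -0.33 to -0.12. The gene for the ring subunit, atpH, gave 191 and 188 in wild type against 145 and 163 in nlp7-1 (log2 change -0.30 ± 0.13). The genes for the catalytic core, atpB and atpA, gave 3392 and 3659 against 2844 and 3200.0, and 351 and 457 against 279 and 363. The genotypes were apart in atpH and atpB and overlapped in atpA, in atpE, and in atpF. The atpF gene, for a stalk subunit, had the largest p of the complex, with 90.7 and 112.5 against 95.7 and 89.2 and a log2 change of -0.13 ± 0.17. The median of the 5 was -0.22, and -0.14 without WT replicate 2 or without nlp7-1 replicate 1. The atpI gene, below the filter, gave 24.1 and 20.7 against 34.0 and 26.6.

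The NDH complex carries electrons around photosystem I. It had 10 members, all with changes below 0, against 50.9% of all probe sets. Of the 10, 6 lay below the filter with signals of 16.1 to 62.1. The 4 above it were ndhI, ndhA, ndhD and ndhC, of which 0 passed the adjusted test. The iron-sulfur subunit gene ndhI had the smallest p, with signals of 1417 and 1462 in wild type against 1182 and 1238 in nlp7-1 (log2 change -0.25 ± 0.10, limma adjusted p = 0.355). The largest p was that of ndhC, with 713 and 655 against 605 and 644. In all 4 both mutant samples lay below both wild-type samples, against 20.9% of all probe sets above the filter. The median log2 change of the 4 was -0.20.

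Over these 6 photosynthetic complexes, 41 of the 43 members had changes below 0, against 50.9% of all probe sets, and the exceptions were psaC and atpI, both below the filter. Counted among the 41 is petD, at -0.002. In 28 of the 43 (65.1%) the genotypes were apart with the mutant lower, against 20.0% of all probe sets. The median log2 change of the 30 members above the filter was -0.33, a range of -0.82 to -0.07. Relative to wild type, the median of these 30 was -0.39 in nlp7-1 replicate 1 and -0.26 in replicate 2, and ±0.06 in the wild-type samples. In both genotypes replicate 2 was the higher sample, by a median of 0.11 in wild type and 0.13 in nlp7-1.

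**Figure D3:**
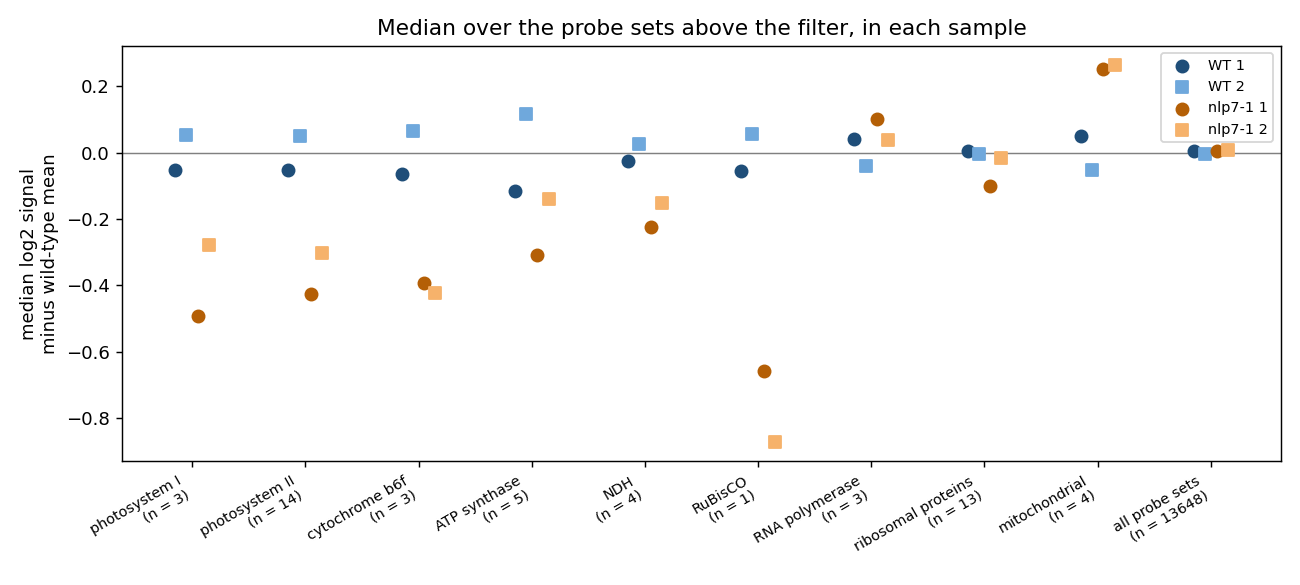
Median log2 MAS5 signal minus the wild-type mean (y axis) over the probe sets above the filter in each plastid complex, in mitochondrially encoded genes and in all probe sets (x axis, n is the number of probe sets), with 1 point per sample. Mutant points (orange) lie below wild-type points (blue) in the 6 photosynthetic complexes, and between -0.10 and 0.10 for RNA polymerase, ribosomal proteins and all probe sets.

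The plastid RNA polymerase had 4 members, and 3 of them had changes above 0. The rpoC1 gene, for a beta-prime subunit, gave 200.2 and 288 in wild type against 373 and 329 in nlp7-1, with both mutant samples higher. Its log2 change was 0.54 ± 0.19 (SE), which did not pass (limma adjusted p = 0.295), and it was the 1 member above 0 with an unadjusted p under 0.05. Without WT replicate 2 it was 0.81 and passed (adjusted p = 0.0334), and without WT replicate 1 it was 0.28 and did not (adjusted p = 0.356). Its operon neighbour rpoB, for the beta subunit, was below the filter at 35.3 and 31.8 against 46.4 and 43.9, again with the mutant higher. The third gene of that operon, rpoC2, overlapped at 164 and 139 against 162 and 155. The alpha subunit gene rpoA lies in another operon, among ribosomal protein genes, and overlapped at 1059.7 and 1002 against 896 and 1019. The median of the 3 members above the filter was 0.07, and it turned to -0.05 without WT replicate 2.

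Ribosomal proteins had 15 members, 13 of them above the filter. By the adjusted test 0 passed, and 2 of the 13 had an unadjusted p under 0.05, both lower, against 5.71% of the probe sets tested. The median log2 change of the 13 was -0.06, and it was -0.17 without WT replicate 2, -0.03 without WT replicate 1 and -0.02 without nlp7-1 replicate 1. Their changes ranged from -0.75 to 0.23.

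In 1 long operon rps19, rpl22, rps3, rpl16, rpl14 and rpl36 precede rpoA. Its 7 members had a median log2 change of -0.03 and ran from -0.12 to 0.09. The rps3 signals were 2539.8 and 2058 in wild type against 2264 and 2246 in nlp7-1, so that the mutant samples lay between the wild-type samples. The same held for rpl16, at 1620.4 and 1374 against 1513 and 1484, the member with the largest p of the group. In rpl22 both mutant samples were lower, at 1452 and 1352 against 1308 and 1275. In rpl36 both mutant samples were slightly higher, at 1039 and 1033 against 1080.3 and 1119.

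Outside that operon the ribosomal protein genes varied, and rpl32 and rps15 overlapped at -0.06 and -0.03. The rps4 gene had the smallest p of the complex, with 1059 and 1205 in wild type against 799 and 854.5 in nlp7-1 (log2 change -0.45 ± 0.12, limma adjusted p = 0.156). The rpl33 gene follows psaJ and gave 396 and 636 against 267 and 333. Its log2 change of -0.75 ± 0.24 was -0.41 without WT replicate 2, the replicate that set the wild-type mean high. The next gene, rps18, gave 151 and 159 against 138 and 97.2. The rps14 gene, which follows psaB, was far below the filter, with 30.3 and 23.3 against 11.8 and 11.9. At the other end, rps2, next to rpoC2 on the gene map, gave 241 and 302 against 328 and 304.

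**Figure D4:**
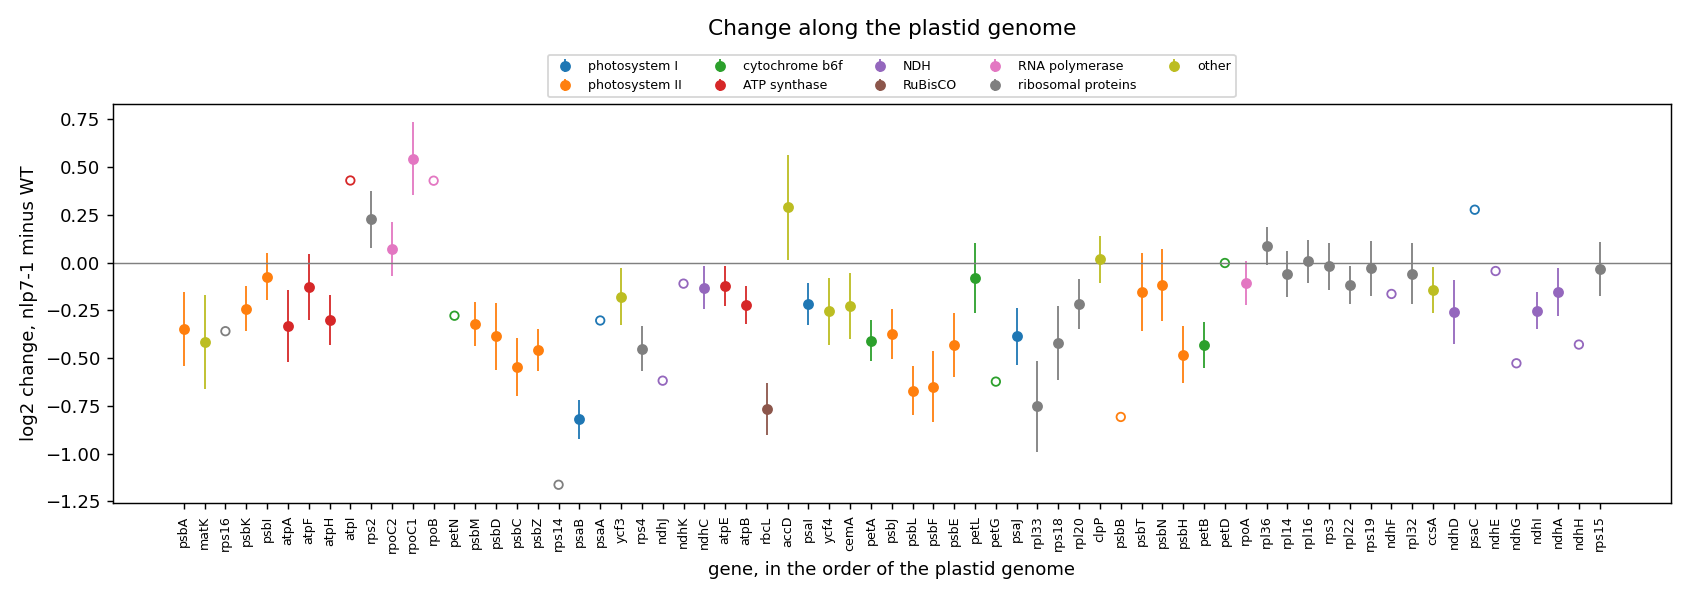
Log2 change of nlp7-1 against wild type (y axis) for the 69 plastid genes in the order of the plastid genome (x axis), coloured by complex. Filled points with bars are members above the filter with their SE, and open circles are members below it; values from rps2 to rpoB lie above 0, and those from petN to rbcL lie below it.

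The other 7 members have various roles, and 0 passed the test or had an unadjusted p under 0.05. The clpP gene, for a protease subunit, differed least, with 1364 and 1563 in wild type against 1587 and 1375 in nlp7-1. The accD gene, for a subunit of acetyl-CoA carboxylase in fatty acid synthesis, gave 504 and 510.2 against 850.0 and 451. Its mutant replicates disagreed more than the genotypes did, and its log2 change of 0.29 ± 0.28 turned to -0.17 without nlp7-1 replicate 1. The intron maturase gene matK, with the smallest p of the group, gave 1033 and 988 against 1000.2 and 575, and only mutant replicate 2 was low. The photosystem I assembly genes ycf3 and ycf4 and the envelope protein gene cemA overlapped. In ccsA, which acts in cytochrome c assembly, both mutant samples were lower, at 431 and 476 against 482 and 520.8.

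Mitochondrially encoded genes, whose mRNAs also lack stable poly(A) tails, had 18 probe sets for 11 genes, matched by symbol, of which 4 were above the filter. Of these 4, 0 passed, against 0.630% lower and 1.64% higher among the probe sets tested. At an unadjusted p under 0.05 the count was also 0, against 5.71% lower and 7.50% higher. Counts of 0 among 4 are near these shares. The median log2 change was 0.32 over the 4 and 0.16 over the 18. Of the 18, 7 (38.9%) were below 0, against 50.9% of all probe sets. Several of the 18 read the same gene, nad1. Without nad1 the median was 0.009 over the remaining 11 and 0.30 over the 3 of them above the filter. The cox1 gene, for a subunit of cytochrome oxidase, gave 322 and 300.0 in wild type against 345 and 425 in nlp7-1, and nad4, of respiratory complex I, gave 353 and 330 against 309 and 311. The difference between the 2 organelles was not tested. The 25S rRNA control probe set, another RNA without a poly(A) tail, gave 5005 and 5318 in wild type against 6180 and 6249 in nlp7-1, and its part in the plastid result was not tested.

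Nuclear genes for subunits of the same complexes were listed from known biology, and 8 of 41 had a probe set that names them. All 8 had changes below 0, against 50.9% of all probe sets. Of the 8, 6 lay above the filter and 0 passed. An unadjusted p under 0.05 held for 3 of the 6, all lower, against 5.71% of the probe sets tested. ATPC1, for the gamma subunit of the ATP synthase, gave 695 and 962 in wild type against 510 and 460.5 in nlp7-1 (log2 change -0.75 ± 0.17, limma adjusted p = 0.114). PSBY and PSAE1 had -0.51 ± 0.16 and -0.56 ± 0.22. The median of the 6 was -0.49, and it also differed within genotypes, by 0.46 between the wild-type and 0.36 between the mutant replicates. Of 21 genes for plastid transcription 1 was named, RPOTmp (AT5G15700), for a phage-type polymerase. It lay just below the filter, was not tested, and gave 69.0 and 60.6 against 60.1 and 49.5. Of 13 genes for plastid RNA processing 0 were named.

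Of 19 markers of green shoot tissue 4 had a named probe set, and 0 of them passed. Their summed signal was 842 and 1032 in wild type against 686 and 837 in nlp7-1. LHCB4.1 and LHCB4.2, which encode light-harvesting proteins, had log2 changes of -0.64 ± 0.21 and -0.39 ± 0.25. RCA, for RuBisCO activase, had -0.02 ± 0.11, with signals of 371 and 379 against 361 and 381. PRK, for a Calvin cycle kinase, lay below the filter in every sample, at 29.6 and 22.9 against 21.5 and 43.7. The 3 above the filter were all higher in replicate 2 than in replicate 1 of both genotypes, as were the photosynthetic plastid transcripts in the median. The root marker PYK10, a beta-glucosidase gene, gave 12794 and 12755 against 12548 and 12307, and EXPA7, of root hair cells, 571 and 367 against 607 and 515. Their part in the plastid result was not tested.

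The count of 2 lower calls depended on the variance model. With no trend in the variance prior it was 0. In that setting 31 of the 13648 tested probe sets were called lower, against 86 in the main fit. With 1 sample left out, the log2 change ran from -0.88 to -0.76 for psaB and from -0.87 to -0.66 for rbcL. Such a fit holds 1 sample in a group. The psaB SE of 0.10 then rose to between 0.13 and 0.17, so a lost call need not mean a smaller change. The share of the photosynthesis members above the filter with a change below 0 was 100% in the fit and 90.0% to 100% with 1 sample left out.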

How the data were processed

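Whole-root RNA of 4 samples was measured on Affymetrix ATH1 arrays. The deposited values are intensities on a linear scale, MAS5 signals per the submitters' processing notes (version not given in the sources used here), which the authors had scaled to a common 2% trimmed mean of 250.0 on each array. The median signal was 97.5 to 100.8. No detection calls or scan dates were used, so background and scan batch were not assessed; the number of arrays limits the precision.

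Probe sets were named from GEO's platform annotation, with gene identifiers matched to the RefSeq gene table of TAIR10.1, used here for names and gene order only; mitochondrial genes were matched by symbol. Signals were taken to log2 without a pseudocount. Probe sets with a mean log2 at or above the 40th percentile entered a two-sided limma fit (version 3.58.1, R 4.3.3, eBayes with trend, Benjamini-Hochberg over 13648 probe sets). This fit was run on simulated data drawn from its own variance model. The pass mark for finding planted changes was set at 4-fold changes, so the run does not vouch for the smaller changes described here. Errors are moderated SEs, and folds come from the log2 changes. An exact permutation test of 2 against 2 cannot go below p = 0.333 and was not used. Every member could be named; called members and the smallest and largest p of each complex are given in every sample, and of the nuclear lists the 3 smallest p. Members, lists and the chromosome 1 genes (AT1G20910 to AT1G27530, left out in 1 alternative added after the data were seen) were chosen with earlier results of these data known. Operons follow general knowledge of plastid genomes. Alternatives were other filters, normalizations, a pseudocount of 32, other variance priors, a block for the replicate number, and leaving out each sample.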

Additional observations from a re-analysis of the deposited data

How the results depend on the processing

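Values were recomputed under 13 alternatives. Some of these cannot alter a member's log2 change. They were no trend in the variance prior, the unmoderated test, the replicate block and leaving out the chromosome 1 genes. Under the others, medians mostly moved by less than the spread between replicates. With a sample left out, the move and that spread come from the same replicate differences, so a small move was largely set beforehand. Shares below 0 were not set against that spread. They ran from 81.1% to 88.7% for the members and from 90.0% to 100% for the photosynthesis members. The count of lower calls was 2 as designed, 1 with no filter or without the chromosome 1 genes, 0 with no trend in the variance prior or with the unmoderated test, and 0 to 6 with a sample left out. The count of higher calls was 0, and 0 to 1 with a sample left out. The unmoderated test called 0 of all 13648 probe sets tested, so its count of 0 says nothing about the members in particular. Lower calls among all probe sets tested numbered 86 of 13648 as designed and 31 with no trend in the variance prior. They numbered 62 of 22746 with no filter and 42 of 13451 without the chromosome 1 genes. The replicate numbers are not stated to pair the samples, but same-numbered samples deviated together (r = 0.436 over the tested probe sets). With the replicate block 11 members were lower and 1 (rpoC1) was higher, among 1290 calls in all against 310.

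Medians with a sample left out ran from -0.27 to -0.17 over the members, -0.51 to -0.26 for photosystem I, -0.42 to -0.31 for cytochrome b6f, -0.23 to -0.15 for NDH, -0.049 to 0.19 for RNA polymerase, -0.17 to -0.016 for ribosomal proteins and -0.21 to -0.086 for other genes. The NDH median was -0.15 with the filter at the median, and that of RNA polymerase 0.25 with no filter, which adds rpoB. Of the 53 tested members, 29 with the mutant lower and 3 with it higher had no overlap. These cannot turn when a sample is left out. In all, 38 kept their sign under the alternatives that could change it, 14 turned only when a sample was left out, and rps3 also with quantile normalization (0.008). The ranges of these 15 were -0.18 to 0.031 for psbI, -0.28 to 0.028 for atpF, -0.049 to 0.19 for rpoC2, -0.17 to 0.75 for accD, -0.46 to 0.01 for cemA, -0.20 to 0.043 for petL, -0.086 to 0.12 for clpP, -0.34 to 0.033 for psbT, -0.29 to 0.061 for psbN, -0.19 to 0.069 for rpl14, -0.11 to 0.13 for rpl16, -0.17 to 0.13 for rps3, -0.23 to 0.17 for rps19, -0.24 to 0.13 for rpl32 and -0.088 to 0.022 for rps15. The causes were not tested.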

Other observations

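The 8 probe sets that name 2 plastid loci were not members. Ribosomal protein genes gave rpl2 signals of 3477 and 3869 in wild type against 3643 and 3406 in nlp7-1, rpl23 signals of 1105 and 809 against 1006 and 1109, and rps7 signals of 3244 and 3589 against 3005 and 3200.3. The genotypes overlapped in the first and the second of these, and not in rps7, where the log2 change was -0.14 ± 0.09 (SE). The 2 probe sets of rps12, whose transcript is assembled by trans-splicing, differed from each other. One gave 260.3 and 265 in wild type against 202 and 199 in nlp7-1, a log2 change of -0.39 ± 0.12, and the other 1267 and 1422 against 1205 and 1329. The ycf1 probe set gave 923 and 1011 against 1114 and 1140.0, with both mutant samples higher. The ycf2 and ndhB probe sets lay below the filter. Of the other 6, 0 passed in limma at an adjusted p under 0.05, against 0.630% lower and 1.64% higher among the probe sets tested. An unadjusted p under 0.05 held for 1, the lower rps12 probe set, against 5.71% lower and 7.50% higher.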
